A study of Mus musculus with 24 samples.

Results

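The mitochondrial chaperones and proteases described here are 10 nuclear genes, namely Hspd1, Hspe1, Hspa9, Dnaja3, Trap1, Lonp1, Clpp, Clpx, Yme1l1 and Afg3l2. They were taken by gene symbol from the joined expression table, and all 10 were found among its 24532 genes. The study measured RNA by sequencing in mice that lack Crif1 in hepatocytes. Crif1, listed as Gadd45gip1, encodes a protein of the mitochondrial ribosome that is needed to make the subunits of the respiratory chain encoded in mitochondrial DNA. Liver, inguinal white adipose tissue (iWAT), gastrocnemius muscle (GM) and hypothalamus were taken from 8-week-old C57BL/6 mice. Control mice (Ctrl) were Crif1 flox/flox with no Cre given in the labels, whereas liver-specific knockouts (LKO) were Crif1 flox/flox with Cre under the albumin promoter, which is active in hepatocytes. The gene was therefore left intact by design in iWAT, GM, hypothalamus and the non-hepatocyte cells of the liver. Each tissue had 3 Ctrl and 3 LKO libraries, 24 in all, and the labels neither tie tissues to mice nor say more of how the replicates were taken, so p-values measure the spread between these libraries.

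Most mitochondrial proteins are made in the cytosol, threaded unfolded through the membranes and then folded inside. The mitochondrial HSP70 (Hspa9) pulls them in and holds them with its J-protein partner DNAJA3, the HSP60 and HSP10 chamber (Hspd1 and Hspe1) folds them, and TRAP1 is the HSP90 of mitochondria. Damaged or unassembled proteins are degraded in the matrix by LONP1 and by CLPXP, in which CLPX unfolds proteins and feeds them to the CLPP peptidase. In the inner membrane, YME1L1 works toward the intermembrane space and AFG3L2 toward the matrix. Transcription of several of these genes is known to respond to unfolded protein in mitochondria, a response in which the factors ATF5, CHOP (Ddit3) and ATF4 have been placed. The liver, rich in mitochondria, is the tissue in which the deletion was made.

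Start-site sequences are shown for 3 genes because they contrast the shared promoter of the HSP60 and HSP10 pair with those of a protease gene that was high in LKO liver and of one that was not. RefSeq windows of GRCm38.p6, which has the coordinates of mm10, run from 250 bases before to 50 bases after each start. In all, 8 of the 10 genes matched the table, with 9 windows. Capitals mark letters matching, on either strand, TGCAAT (CHOP-type C/EBP site), TGATGCAA (C/EBP-ATF composite), TTCNNGAA or GAANNTTC (paired heat shock units), TGACG (ATF/CRE half-site) or CACGTG (E-box). Hspe1 lies at chr1:55088148-55091317 on the plus strand and Hspd1 at chr1:55077834-55087932 on the minus strand, head to head with 215 bases between them. The Hspe1 window, chr1:55087898-55088197, thus holds the starts of both of these spans. A second Hspd1 window, chr1:55088194-55088493, belongs to another start that the Hspe1 window does not hold. The Lonp1 window is chr17:56626854-56627153, minus strand, and the Clpp window chr17:56990014-56990313, plus strand.
Hspe1: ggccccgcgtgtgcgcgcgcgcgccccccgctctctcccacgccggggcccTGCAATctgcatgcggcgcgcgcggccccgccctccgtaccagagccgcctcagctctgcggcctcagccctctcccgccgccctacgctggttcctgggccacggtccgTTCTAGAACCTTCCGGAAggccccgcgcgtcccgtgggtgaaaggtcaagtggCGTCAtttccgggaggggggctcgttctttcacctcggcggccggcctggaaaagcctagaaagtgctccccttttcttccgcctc
Lonp1: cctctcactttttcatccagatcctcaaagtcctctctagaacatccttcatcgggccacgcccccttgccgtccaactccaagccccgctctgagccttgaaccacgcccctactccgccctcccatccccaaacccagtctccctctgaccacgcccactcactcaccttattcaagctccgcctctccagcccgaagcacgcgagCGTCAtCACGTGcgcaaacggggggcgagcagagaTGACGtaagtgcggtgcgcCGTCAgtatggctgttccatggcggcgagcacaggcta
Clpp: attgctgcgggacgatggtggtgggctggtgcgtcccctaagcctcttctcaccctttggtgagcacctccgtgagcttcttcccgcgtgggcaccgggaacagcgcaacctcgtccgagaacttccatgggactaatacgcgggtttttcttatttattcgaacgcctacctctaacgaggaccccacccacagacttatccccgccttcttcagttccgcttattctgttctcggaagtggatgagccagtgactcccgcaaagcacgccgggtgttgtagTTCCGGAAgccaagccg

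The Hspe1 and Hspd1 window held TGCAAT starting 199 bases before the Hspe1 start, a match found in 8.4% of the 32851 windows. It also held a run of 3 overlapping heat shock unit pairs, TTCTAGAA at -89, GAACCTTC at -84 and TTCCGGAA at -79, each type present in 8.52% (TTCNNGAA) or 7.86% (GAANNTTC) of windows, and CGTCA, the complement of TGACG, at -36. The Lonp1 window held CACGTG at -36 (7.15% of windows) and TGACG or CGTCA at -42, -7 and 13. TGACG on either strand was in 20.8% of windows and in those of 6 of the 8 genes, and CACGTG was also in a second Hspd1 window, at -80 from the start used there. The Clpp window held a single TTCCGGAA at 34. TGATGCAA was in 0.895% of windows and in none of the 9 windows of these genes. These matches describe letters in the windows, and binding was not measured.

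In the liver of LKO mice, the transcripts of Lonp1, Hspa9, Hspd1, Hspe1, Afg3l2 and Yme1l1 were higher than in Ctrl, by 1.31-fold to 3.27-fold in the ratio of means, while for Clpp and Clpx the groups overlapped. After median-ratio scaling, which takes out a shift shared by most genes, Hspa9 alone of these 6 was still called higher. None of the 10 genes passed the test in iWAT, GM or hypothalamus. Values are FPKM, read fragments scaled by transcript length and library size, and genes were tested by limma on log2(FPKM + 1). A gene was called where its p, adjusted in that tissue by Benjamini-Hochberg, was under 0.05. Of these genes, 6 of 10 passed in liver, all higher in LKO, against 38.3% of the 10956 genes tested that were called higher and 43.8% called in either direction. With a fold change of at least 1.5 also required, 5 of 10 passed, against 23.9% of all genes called higher.

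The targeted gene was checked first. Gadd45gip1 was at 14.6, 12.5 and 13.6 FPKM in Ctrl livers 1, 2 and 3 and at 5.403, 2.002 and 2.51 in LKO livers 1, 2 and 3, a log2 fold change of -1.84 ± 0.27 (SE, limma adjusted p = 0.00357). LKO liver 1 kept the most Crif1 transcript and was nearest to Ctrl for each of the 8 genes whose groups did not overlap. Without it the log2 fold change of Gadd45gip1 was -2.16, and those of the 10 genes are given with the other runs that leave out a library. Sequenced depth, recovered from the deposited coverage and FPKM, was 4.45 to 8.09 Gb with a median of 5.19 Gb, and the 10 genes had a mean read coverage of 53.7 to 2853 per base, so all 10 passed the filter on low values in every tissue.

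The whole liver transcriptome table was shifted. The median log2 fold change of the 10956 genes tested was 0.33 in liver, and -0.04 once the libraries were scaled by the median ratio. The median of the 10 genes was 0.62, and 0.19 after that scaling. After scaling, 1 gene was called higher (Hspa9) and 1 lower (Clpx), against 15.2% of genes called higher and 17.9% lower. With LKO liver 1 left out as well, 6 were called higher (Lonp1, Hspa9, Hspd1, Dnaja3, Hspe1 and Afg3l2) and 1 lower (Clpx), against 20.5% of the 10436 genes tested called higher and 29.0% lower. Levels summed over the 10 genes were 1480 to 1577 TPM in Ctrl liver and 1971, 3142 and 4064 TPM in the LKO libraries, or 0.148 to 0.158% against 0.197 to 0.407% of all transcripts.

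**Figure D1:**
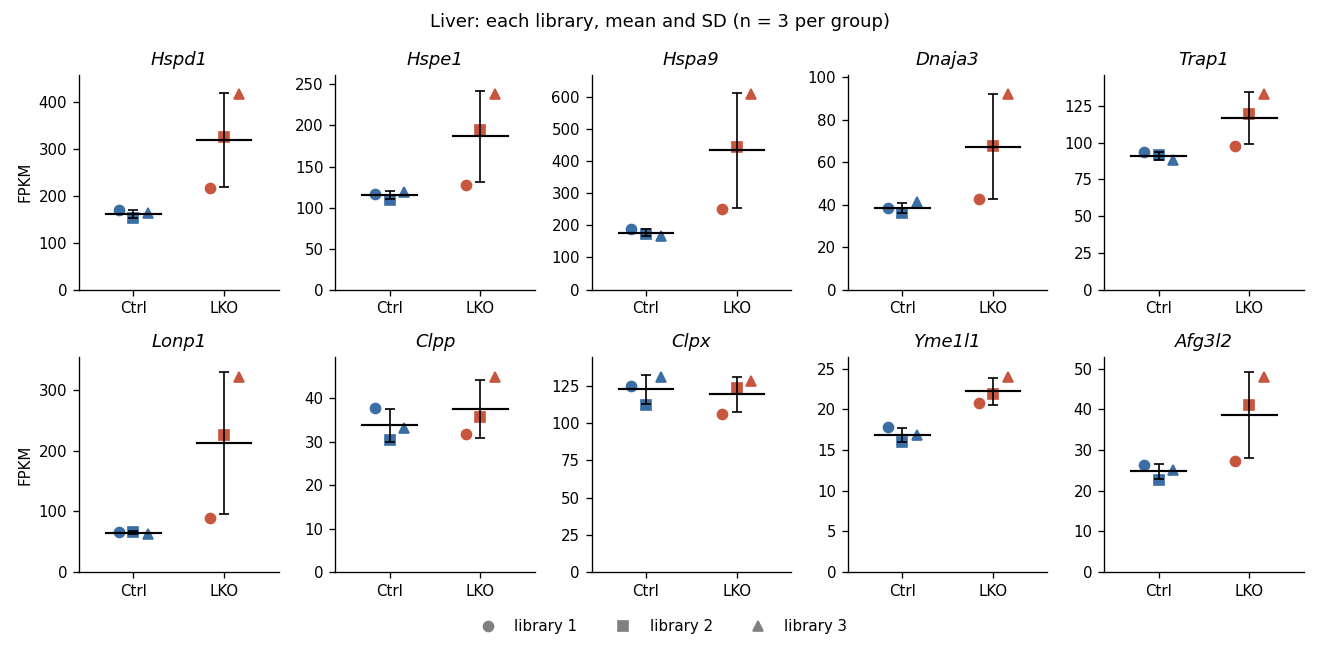
FPKM of the 10 genes in liver, 1 panel a gene with its own axis from 0, for Ctrl (blue) and LKO (red). Symbols are the 3 libraries of a group, long bars means and error bars SD. In 8 panels every LKO point lies above every Ctrl point, LKO library 1 being the closest to Ctrl, and in the panels of Clpp and Clpx the groups overlap.

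Both subunits of the folding chamber were called higher on the deposited scale, and neither after scaling. Hspd1, encoding HSP60, was at 169, 153 and 163 FPKM in Ctrl livers and at 216, 325.5 and 417 FPKM in LKO livers. The log2 fold change was 0.93 ± 0.23 (SE, adjusted p = 0.0182), and 0.49 ± 0.16 after scaling (adjusted p = 0.0519). Hspe1, encoding the HSP10 lid, was at 117, 109 and 118 FPKM in Ctrl and at 128, 194 and 238 FPKM in LKO, a log2 fold change of 0.65 ± 0.22 (adjusted p = 0.0449). Both genes were higher in every LKO library, but the value of Hspe1 in LKO liver 1 was little above Ctrl, and after scaling its log2 fold change was 0.21 (adjusted p = 0.29). GENCODE M21 lists 5 processed pseudogenes of Hspd1, 6 of Hspe1 and 1 of Hspa9, so reads shared with these copies make the levels of the 3 genes uncertain.

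Among the mitochondrial HSP70 system and the HSP90 of mitochondria, the change was largest for Hspa9 (chr18:34937415-34954351). Hspa9 was at 188, 173 and 168 FPKM in Ctrl livers and at 249, 444 and 607 FPKM in LKO livers, the highest level of any of the 10 genes in any library. Its log2 fold change was 1.20 ± 0.30 (adjusted p = 0.0189) and 0.76 ± 0.22 after scaling (adjusted p = 0.0416). Its partner Dnaja3 (chr16:4684070-4707693) was at 38.2, 35.95 and 41.0 FPKM in Ctrl and 42.4, 67.5 and 91.9 FPKM in LKO, a log2 fold change of 0.73 ± 0.25 that missed the threshold (adjusted p = 0.0525). Trap1 (chr16:4039977-4077810), whose span overlaps Dnase1 by 48 bases on the other strand, was at 93.5, 91.4 and 88.1 FPKM in Ctrl and 97.8, 119.5 and 133 FPKM in LKO. Its log2 fold change was 0.35 ± 0.13 (adjusted p = 0.0653), near that of the median gene, and -0.09 after scaling. Without LKO liver 1, both Dnaja3 (1.02, adjusted p = 0.000523) and Trap1 (0.47, adjusted p = 0.0036) were called.

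Of the matrix proteases, Lonp1 (chr17:56614298-56626903) had the largest fold change of the 10 genes. It was at 66.8, 65.3 and 63.0 FPKM in Ctrl livers and at 89.8, 226 and 321 FPKM in LKO livers, so that the 3 LKO libraries differed among themselves by more than 3-fold while the Ctrl libraries were close together. The log2 fold change was 1.51 ± 0.41 (adjusted p = 0.0259), 1.07 ± 0.34 after scaling (adjusted p = 0.0531) and 2.03 ± 0.15 without LKO liver 1 (adjusted p = 3.84e-05). Clpp (chr17:56990264-56996371), the peptidase of CLPXP, was at 37.7, 30.4 and 33.2 FPKM in Ctrl and 31.8, 35.8 and 45.0 FPKM in LKO, with a log2 fold change of 0.14 ± 0.15 (adjusted p = 0.456). Clpx (chr9:65294260-65330658), its unfoldase, was at 125, 112 and 131 FPKM in Ctrl and 106, 123 and 128 FPKM in LKO, with a log2 fold change of -0.04 ± 0.12 (adjusted p = 0.775). Relative to the shifted liver transcriptome Clpx was lower, by a log2 fold change of -0.48 ± 0.10 after scaling (adjusted p = 0.0143) and of -0.50 with LKO liver 1 left out as well (adjusted p = 0.00685). Clpp took a scaled log2 fold change of -0.29 ± 0.10, which missed the threshold (adjusted p = 0.0581).

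Both inner membrane proteases were called higher on the deposited scale, and neither after scaling. Afg3l2 (chr18:67404764-67449136) was at 26.4, 22.7 and 25.1 FPKM in Ctrl livers and 27.2, 41.0 and 48.0 FPKM in LKO livers, a log2 fold change of 0.59 ± 0.20 (adjusted p = 0.0481). Yme1l1 (chr2:23156505-23199260) was at 17.8, 16 and 16.9 FPKM in Ctrl and 20.7, 21.9 and 23.98 FPKM in LKO, with a small but even log2 fold change of 0.37 ± 0.10 (adjusted p = 0.0270). Its groups were apart and its LKO libraries close to each other, unlike those of Lonp1. After scaling, Afg3l2 was at 0.16 (adjusted p = 0.351) and Yme1l1 at -0.05 (adjusted p = 0.678).

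In count, 8 of 10 genes had every LKO liver above every Ctrl liver, against 53% of all genes tested. Ranked among the log2 fold changes of all 10956 genes, Lonp1 was at the 97.3rd percentile, Hspa9 at the 94.9th and Hspd1 at the 89.9th. Dnaja3 was at the 82.6th, Hspe1 at the 78.4th and Afg3l2 at the 74.7th. Yme1l1, although called, was at the 55.1st, Trap1 at the 52.0th, Clpp at the 29.2nd and Clpx at the 15.97th. The liver calls rest on few libraries. Leaving out any 1 Ctrl library or LKO liver 2 left 0 of 10 genes past the threshold by limma (the smallest adjusted p of each run was 0.0534 to 0.0723), leaving out LKO liver 3 left 2 (Hspa9 and Hspd1), and leaving out LKO liver 1 gave 8, all higher. Of all genes, 21.6%, 17.7% and 17.3% were called without Ctrl liver 1, 2 and 3, 13.5% without LKO liver 2 and 26.5% without LKO liver 3, while without LKO liver 1 58.9% were called higher and 8.55% lower. In the 4 runs that called none of the 10 genes, 6 (without Ctrl liver 1), 4 (Ctrl liver 2), 7 (Ctrl liver 3) and 4 (LKO liver 2) had an unadjusted p under 0.05, against 44.9%, 42.7%, 40.9% and 39.4% of all genes. Without LKO liver 1, log2 fold changes were 2.03 (Lonp1), 1.55 (Hspa9), 1.185 (Hspd1), 1.02 (Dnaja3), 0.90 (Hspe1), 0.82 (Afg3l2), 0.47 (Trap1), 0.42 (Yme1l1), 0.25 (Clpp) and 0.04 (Clpx). Without LKO liver 3 they were 1.12 (Lonp1), 0.91 (Hspa9), 0.71 (Hspd1), 0.47 (Dnaja3), 0.45 (Hspe1), 0.42 (Afg3l2), 0.25 (Trap1), 0.32 (Yme1l1), 0.0053 (Clpp) and -0.10 (Clpx). The 9 genes other than Clpx kept their direction on the deposited scale in every one of these runs.

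**Figure D2:**
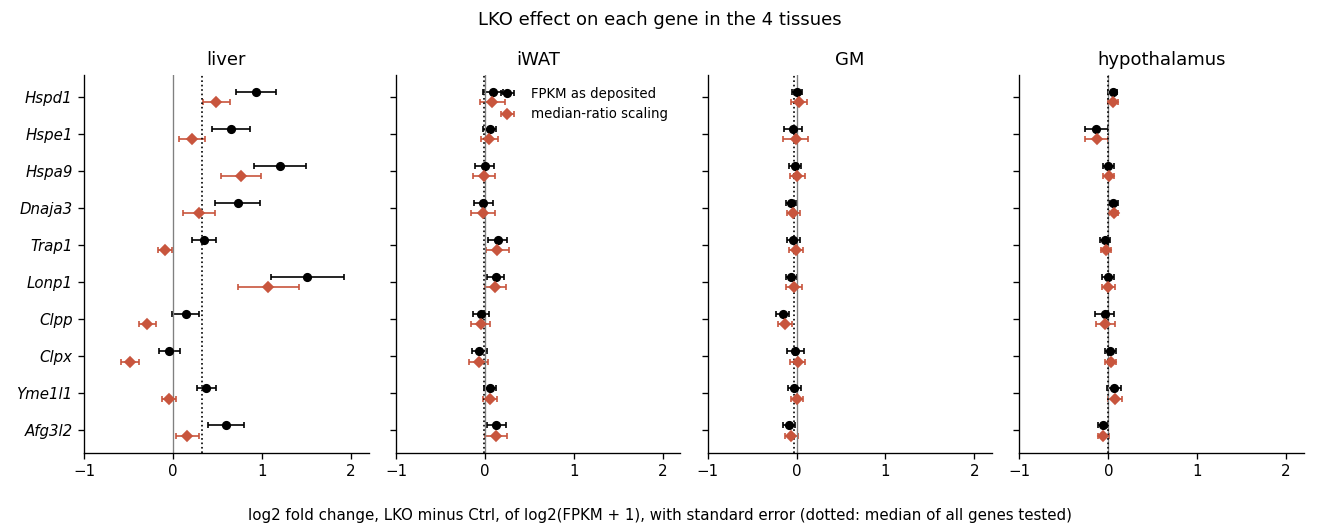
Log2 fold change (LKO minus Ctrl, of log2(FPKM + 1)) of each gene with its standard error in the 4 tissues, on FPKM as deposited (black circles) and after median-ratio scaling (red diamonds). The dotted line is the median of all genes tested on the deposited scale, 0.33 in liver. Scaling moves the liver values left, leaving Lonp1, Hspa9 and Hspd1 farthest right and Clpp, Clpx, Yme1l1 and Trap1 below 0, and values in the other tissues lie near 0.

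The liver samples also differed in markers of other cells. Summed FPKM of 5 Kupffer cell markers was 95.7 to 99.2 in Ctrl and 205 to 305 in LKO, that of 6 monocyte and neutrophil markers 48.4 to 54.6 and 138 to 180, that of 4 stellate cell markers 58.7 to 66.8 and 150 to 165, and that of 5 cholangiocyte markers 30.7 to 31.8 and 41.6 to 88.9. Summed FPKM of 4 endothelial markers was 27.5 to 31.1 and 34.9 to 58.2, that of 5 adipocyte markers 12.9 to 14.4 and 33.4 to 35.6, and that of 5 B and T cell markers 1.34 to 1.70 and 1.34 to 2.22. The adipocyte markers Lep and Plin1 were each at 0 in a Ctrl and in an LKO liver, so that sum does not show adipocytes. The Kupffer, monocyte and neutrophil, stellate and cholangiocyte markers were all above 0 in every LKO liver, and S100a8 was at 0 in a Ctrl library. These sums do not count cells. Cell sorting in the paper pointed to fewer resident Kupffer cells and more infiltrated monocytes in LKO liver. Summed FPKM of 5 hepatocyte markers was 57870 to 60940 in Ctrl and 41620 to 67360 in LKO, so the labelled tissue was borne out in both groups. The part of these cells in the levels of the 10 genes was not tested, and in bulk tissue fewer cells of a type and less RNA per cell cannot be told apart.

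Ratios within a library do not depend on scaling between libraries. Of the 9 gene pairs set side by side in each of the 4 tissues, 36 ratios in all, the groups lay apart in 7 of 9 in liver, in 1 of 9 both in iWAT and in GM, and in 0 of 9 in hypothalamus. For levels of single genes, the share of all genes with groups apart was 61.1% (liver), 20.8% (iWAT), 11.6% (GM) and 9.7% (hypothalamus). With 3 against 3 libraries the exact two-sided permutation test cannot go below p = 0.1, and the smallest p adjusted over the 36 ratios was 0.4, so these are descriptions of the libraries.

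Hspa9 relative to its cytosolic relative Hspa8 was 0.514, 0.359 and 0.441 in Ctrl livers and 0.812, 0.956 and 0.965 in LKO livers, a difference of 1.07 on the log2 scale. Lonp1 relative to the peroxisomal protease gene Lonp2 was 0.371, 0.471 and 0.429 in Ctrl and 0.771, 1.79 and 2.53 in LKO (log2 difference 1.85). The mitochondrial member of each pair thus gained on its counterpart of another compartment in all 3 LKO livers. Dnaja3 relative to cytosolic Dnaja1 also gained (log2 difference 0.89), as did Hspd1 relative to Tcp1, a subunit of the cytosolic chaperonin (0.35), whereas Trap1 lost slightly to cytosolic Hsp90ab1 (-0.14).

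Between partners, Hspe1 fell behind Hspd1, with ratios of 0.693, 0.716 and 0.727 in Ctrl livers and 0.592, 0.597 and 0.571 in LKO livers. Dnaja3 fell behind Hspa9, from 0.203, 0.208 and 0.244 in Ctrl to 0.170, 0.152 and 0.151 in LKO. Both shifts were seen in LKO liver 1 as in the other two LKO livers. The ratios Clpp/Clpx and Yme1l1/Afg3l2 overlapped between the groups. Of a pair of ratios added after the values were seen, and given with no test, Lonp1 to Clpp was 1.77, 2.15 and 1.90 in Ctrl and 2.82, 6.31 and 7.15 in LKO, and Lonp1 to Clpx was 0.535, 0.583 and 0.482 in Ctrl and 0.848, 1.84 and 2.51 in LKO. Both added ratios were also higher in every LKO library of iWAT, by 0.17 and 0.19 on the log2 scale, and overlapped between the groups in GM and hypothalamus.

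**Figure D3:**
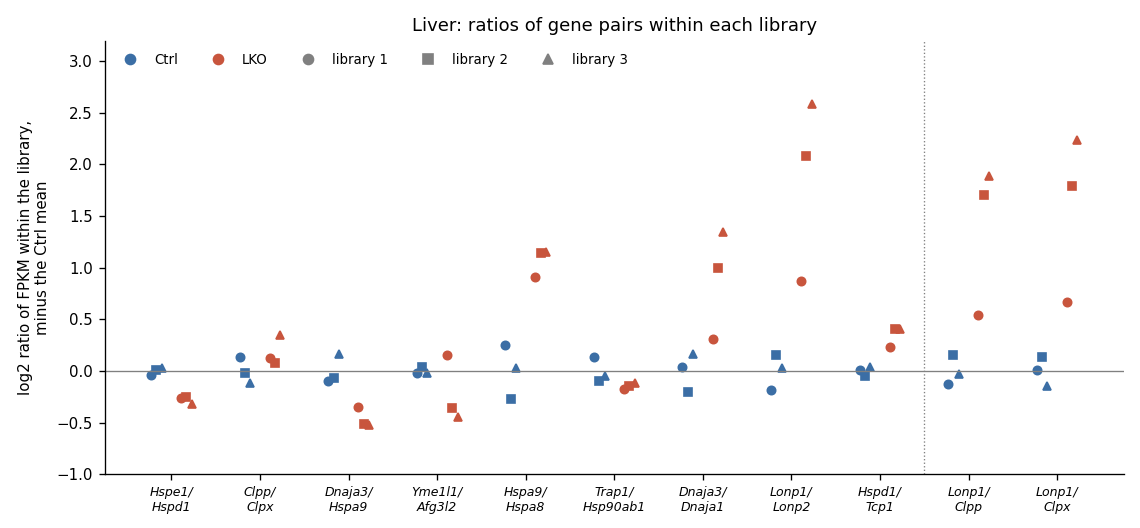
Log2 ratio of the FPKM of 2 genes within each liver library, minus the mean of the Ctrl libraries, for 9 pairs and, right of the dotted line, the 2 pairs added after the values were seen. Blue symbols are Ctrl and red symbols LKO libraries 1 to 3. Lonp1/Lonp2 and Hspa9/Hspa8 lie above Ctrl in all LKO libraries, Dnaja3/Hspa9 and Hspe1/Hspd1 below.

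Beyond the liver, where Crif1 was not deleted, 0 of the 10 genes passed in iWAT, against 0% of the 12288 genes tested, 0 passed in GM, against 0% of 10877 genes, and 0 passed in hypothalamus, against 0.0217% of 13828 genes. By limma 0 of the 10 genes had an unadjusted p under 0.05 in any of these tissues, where 15.0% (iWAT), 6.83% (GM) and 3.72% (hypothalamus) of all genes did. Gadd45gip1 was at 11.6 to 15.99 FPKM in Ctrl and 10.4 to 11.99 in LKO iWAT, 12.9 to 15.9 and 12.7 to 17.4 in GM, and 25.1 to 28.0 and 23.2 to 26.4 in hypothalamus. In each of these tissues the groups overlapped.

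In iWAT, log2 fold changes of the 10 genes lay between -0.06 (Clpx) and 0.14 (Trap1), and all groups overlapped, against 20.8% of genes with groups apart. Lonp1 was at 62.5, 50.9 and 54.3 FPKM in Ctrl and 64.7, 57.8 and 59.9 FPKM in LKO iWAT, Hspa9 at 178 to 217 and 183 to 201, and Hspd1 at 144 to 172 and 154 to 185. Of the 9 pairs, Dnaja3 to Dnaja1 lay apart there, at 0.877, 0.663 and 0.731 in Ctrl and 0.915, 1.09 and 1.14 in LKO. Dnaja3 itself had a log2 fold change of -0.02 in iWAT, so this ratio does not show a rise of Dnaja3.

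In GM, values ran from -0.16 (Clpp) to 0.00 (Hspd1). Clpp, Afg3l2 and Dnaja3 had every LKO library below every Ctrl library, 3 of 10 genes against 7.2% of all genes, with ratios of means of 0.892, 0.941 and 0.957. This was on FPKM. In TPM, of these 3 genes, Clpp alone stayed apart. Afg3l2 was at 64.6 TPM in LKO 1 and 63.17 in Ctrl 1, and Dnaja3 at 89.43 and 88.19. Clpp was at 19.1 to 21.7 FPKM in Ctrl and 17.3 to 19.1 in LKO muscle, and its log2 fold change of -0.16 ± 0.07 did not pass (adjusted p = 0.765). Lonp1 relative to Lonp2 was 1.85, 2.05 and 1.95 in Ctrl and 2.09, 2.30 and 2.14 in LKO, while Lonp1 itself had a log2 fold change of -0.06.

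In hypothalamus, log2 fold changes ran from -0.13 (Hspe1) to 0.07 (Yme1l1). Dnaja3 (26.2 to 28.0 FPKM in Ctrl and 28.1 to 28.7 in LKO) and Hspd1 (87.6 to 90.7 and 91.2 to 93.9) had every LKO library above every Ctrl library, 2 of 10 genes against 4.74% of all genes. The ratios of means were 1.041 and 1.035, and neither passed the test (adjusted p = 0.999). In TPM, Hspd1 stayed apart but Dnaja3 overlapped, at 63.75 to 74.4 in Ctrl and 71.9 to 76.5 in LKO. The standard errors of the 10 genes were 0.05 to 0.13 across the 3 tissues other than liver, against liver log2 fold changes of 0.93 to 1.51 for Hspd1, Hspa9 and Lonp1.

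The difference between tissues was itself tested over all 24 libraries. The LKO effect depended on the tissue for 7 of 10 genes, against 33.5% of the 15849 genes tested (F test over 3 contrasts in limma, adjusted p under 0.05). The count was 3 of 10 without any 1 of Ctrl liver 2, Ctrl liver 3, LKO liver 2 or LKO liver 3, where 25.0%, 24.5%, 24.6% and 22.2% of all genes passed. The smallest adjusted p values were those of Hspa9 (0.00285), Hspd1 (0.00455) and Lonp1 (0.00652), followed by Yme1l1 (0.0237), Afg3l2 (0.0270), Dnaja3 (0.0319) and Hspe1 (0.0357). Trap1 (0.0861), Clpp (0.520) and Clpx (0.960) did not pass. After median-ratio scaling 3 of 10 genes passed, namely Hspa9, Lonp1 and Clpx, against 23.7% of all genes.

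In Ctrl mice the 10 genes differed in how they were set across tissues. Levels and tests between tissues are on deposited FPKM, without scaling, and several orders and separations differed in TPM. Clpx stood out as high in liver and Trap1 and Hspa9 as low in hypothalamus, while Clpp was lowest in GM. Pairwise contrasts over the 12 Ctrl libraries called 46 of 60 gene comparisons. By pair, 6 of 10 genes differed between liver and iWAT (79.8% of the 15320 genes tested), 9 of 10 between liver and GM (71.7%), 10 of 10 between liver and hypothalamus (87.7%), 8 of 10 between iWAT and GM (76.6%), 6 of 10 between iWAT and hypothalamus (80.9%) and 7 of 10 between GM and hypothalamus (85.7%). The labelled tissues carried their own markers, with 5 adipocyte genes summing to 20900 to 24570 FPKM in Ctrl iWAT, 5 myofibre genes to 91110 to 101400 in Ctrl GM and 5 neuronal genes to 1050 to 1127 in Ctrl hypothalamus.

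The subunits of CLPXP had different orders. Clpx was highest in liver, at 123 ± 9.58 FPKM (mean ± SD, n = 3), then iWAT (36.3 ± 3.39), GM (27.2 ± 3.67) and hypothalamus (12.9 ± 0.600), and all neighbours in that order differed. Liver exceeded hypothalamus 8.85-fold on the log2(FPKM + 1) scale (adjusted p = 2.22e-11). Clpp was at 47.3 ± 5.46 FPKM in hypothalamus, 44.1 ± 4.99 in iWAT, 33.8 ± 3.71 in liver and 20.6 ± 1.33 in GM, the difference between hypothalamus and iWAT not passing (adjusted p = 0.422). The ratio of Clpp to Clpx therefore ran from a log2 mean of -1.86 in liver to 1.87 in hypothalamus.

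Trap1 was highest in iWAT (106 ± 11.7 FPKM), then liver (91.0 ± 2.76), GM (76.7 ± 3.85) and hypothalamus (32.5 ± 1.29), with every neighbour differing. Hspa9 followed the same order, at 192 ± 21.4 in iWAT, 176 ± 10.5 in liver, 150.1 ± 8.93 in GM and 81.7 ± 2.49 in hypothalamus, but iWAT and liver did not differ beyond their spread (adjusted p = 0.236). On FPKM, Dnaja3 was highest in GM (44.5 ± 0.781), followed by iWAT (39.2 ± 5.54) and liver (38.4 ± 2.54), the 3 tissues not separated from each other (adjusted p = 0.0536 to 0.852), with hypothalamus lowest (27.3 ± 0.909). In TPM, however, hypothalamus (63.75 to 74.4) overlapped liver (65.8 to 73.4), and GM (88.2 to 91.0) lay above both.

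On FPKM, Hspd1 fell into 2 levels, liver (161 ± 8.16 FPKM) with iWAT (155 ± 14.8), and hypothalamus (89.5 ± 1.67) with GM (83.4 ± 2.46), neither pair differing within itself (adjusted p = 0.470 and 0.228). In TPM, however, hypothalamus (220.3 to 232.7) lay above GM (166.5 to 170.8). Hspe1, which shares its promoter region with Hspd1, was at 115 ± 4.90 in liver, 102 ± 5.75 in iWAT and 94.8 ± 16.7 in hypothalamus, with GM lowest at 62.4 ± 7.91, and neither liver and iWAT (adjusted p = 0.24) nor iWAT and hypothalamus (adjusted p = 0.373) differed beyond their spread. The ratio of Hspe1 to Hspd1 was thus highest in hypothalamus, at a log2 mean of 0.07, against -0.42 to -0.59 in the other tissues. On FPKM, Lonp1 was highest in liver (65.0 ± 1.91), then iWAT (55.9 ± 5.97), GM (41.7 ± 1.37) and hypothalamus (38.4 ± 3.03), GM and hypothalamus not differing (adjusted p = 0.206). In TPM, Lonp1 was lower in GM (80.6 to 89.0) than in hypothalamus (94.1 to 100.8). Hspe1 was at 210.6 to 273.3 TPM in hypothalamus and 199.9 to 211.9 in liver.

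On deposited FPKM the inner membrane proteases had the narrowest ranges. Yme1l1 was at 20.6 ± 1.57 FPKM in hypothalamus, 19.7 ± 0.719 in iWAT, 16.9 ± 0.885 in liver and 12.7 ± 0.804 in GM, with hypothalamus and iWAT not differing (adjusted p = 0.504). Afg3l2 was at 32.1 ± 0.690 in GM, 29.6 ± 1.23 in hypothalamus, 29.2 ± 4.01 in iWAT and 24.7 ± 1.84 in liver, where liver alone differed from each other tissue. Afg3l2 thus differed by at most 1.29-fold between any 2 tissues on the log2(FPKM + 1) scale. In TPM these ranges were not the narrowest. Afg3l2 was then at 41.6 to 47.3 in liver, 63.2 to 65.85 in GM and 68.6 to 81.5 in hypothalamus. Yme1l1 was at 24.7 to 27.4 TPM in GM and 46.4 to 59.0 in hypothalamus. Dnaja3 was at 65.8 to 73.4 TPM in liver and 88.2 to 91.0 in GM.

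**Figure D4:**
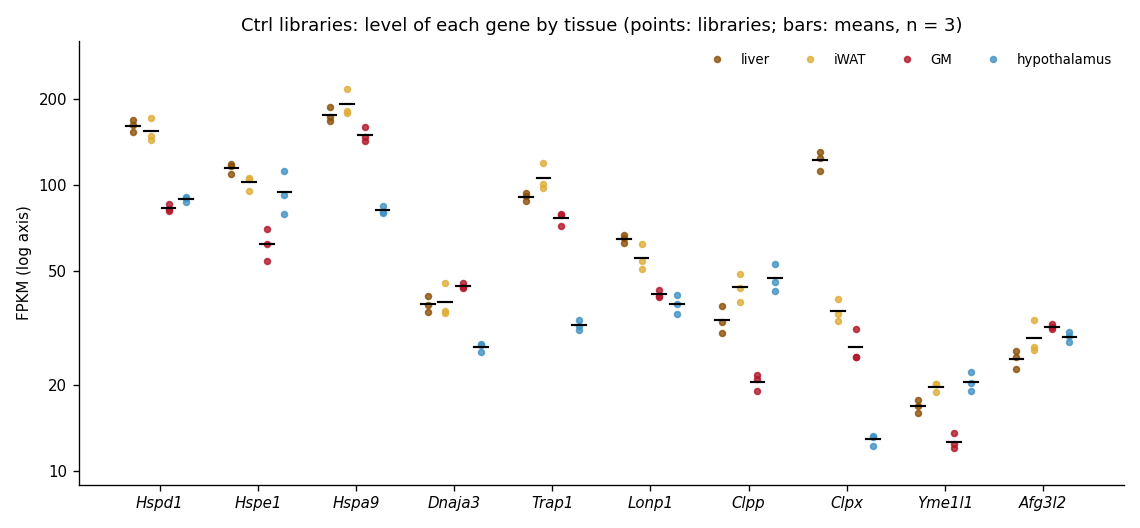
FPKM of the 10 genes in the 12 Ctrl libraries on a log axis, by tissue. Points are libraries and bars means (n = 3). On this FPKM scale Clpx spans the widest range, from about 12.9 FPKM in hypothalamus to 123 in liver, and Afg3l2 and Yme1l1 the narrowest.

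The transcripts most like each gene over all 24 libraries, by Pearson's r on log2(FPKM + 1), are given as a description, since tissues and genotypes are shared by all points. For Lonp1 they were Trib3 (0.969), Frk (0.962) and Cyp2b10 (0.961), and for Hspd1 Ctsl (0.983), Siglece (0.977) and Htatip2 (0.976). Those of Hspa9 were Nhlrc2 (0.969), Afg3l1 (0.966) and Gfer (0.963), and those of Hspe1 Nubp1, Slc25a39 and Klra2 (0.945 to 0.950). Clpx was most like Lactb2, Llgl2 and Nqo2 (0.990 to 0.991), Trap1 like Gbe1, Cpt2 and Pon3 (0.985 to 0.987) and Clpp like Pddc1, Alg1 and Parn (0.975 to 0.977). Yme1l1 was most like M6pr, Glce and BC005537 (0.969 to 0.975), Dnaja3 like Dars, Psmd8 and Mrps18b (0.933 to 0.947), and Afg3l2, with the lowest values, like Ghitm, Lars and Abcc4 (0.873 to 0.890). Among the 10 genes the closest pair was Hspd1 and Lonp1 (0.938) and the farthest Clpp and Dnaja3 (-0.30).

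Related genes were counted in liver in lists of the same pathways, to be read against the 38.3% of all genes called higher and 5.49% called lower there, or 15.2% and 17.9% after scaling. Other mitochondrial chaperones had 5 of 11 called higher and 0 lower (median log2 fold change 0.45, against 0.33 for all genes). Grpel2, a nucleotide exchange factor of mitochondrial HSP70, led them at 7.88, 8.59 and 7.22 FPKM in Ctrl and 17.1, 24.9 and 24.3 in LKO (1.36 ± 0.16, adjusted p = 0.00185). Ppif, encoding cyclophilin D, rose by 0.87 ± 0.23 (adjusted p = 0.0234) and the disaggregase gene Clpb by 0.78 ± 0.19 (adjusted p = 0.0198), but with a single library left out Ppif was called in 1 of 6 runs and Clpb in 2 of 6. After scaling, Grpel2 alone was called higher (0.95, adjusted p = 0.00268) and Dnajc30 lower.

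Other mitochondrial proteases and quality control genes had 6 of 18 called higher, against 38.3% of all genes, and 0 lower (median 0.40). Pitrm1, which degrades cleaved presequences, rose from 9.41 to 10.7 FPKM in Ctrl to 13.7, 24.4 and 30.8 FPKM in LKO (1.06 ± 0.26, adjusted p = 0.0195). The peptidase gene Nln (0.76 ± 0.17, adjusted p = 0.0149) and Pmpcb, a subunit of the presequence processing peptidase (0.63 ± 0.15, adjusted p = 0.0157), also rose. Pitrm1 (0.65) and Nln (0.36) were still called higher after scaling, and Lactb was called lower. With a single library left out, Pitrm1 was called in 2 of 6 runs and Nln in 3 of 6, neither of them when Ctrl liver 2, Ctrl liver 3 or LKO liver 2 was missing (adjusted p up to 0.0766 and 0.0668).

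Mitochondrial protein import genes had 6 of 21 called higher, against 38.3% of all genes, and 0 lower (median 0.40), and after scaling 0 higher and 1 lower (Timm10b). Their largest values were those of Timm10 (1.05 ± 0.39, adjusted p = 0.0645) and Tomm5 (0.85 ± 0.32, adjusted p = 0.0661), neither of which passed, and of the small import chaperone gene Timm8a1 (0.76 ± 0.24, adjusted p = 0.0389).

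Cytosolic chaperones had 9 of 19 called higher, against 38.3% of all genes, and 2 lower (median 0.43), and after scaling 0 higher and 4 lower (Hspa1a, Hspa1b, Dnaja1 and Dnajb1). On the deposited scale Cct2, a subunit of the cytosolic chaperonin, rose by 0.88 ± 0.26 (adjusted p = 0.0321) and Hsp90aa1 by 0.84 ± 0.16 (adjusted p = 0.00821). The inducible HSP70 genes went the other way, Hspa1b from 8.25 ± 1.15 to 4.12 ± 0.590 FPKM (a log2 difference of -0.85 ± 0.14, adjusted p = 0.0052) and Hspa1a with a log2 fold change of -0.57 ± 0.12 (adjusted p = 0.0132). This pair is nearly identical in sequence, so the split of reads between them is uncertain.

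Of the regulators placed in the mitochondrial unfolded protein response, 2 of 5 were called higher in liver on the deposited scale (38.3% of all genes) and 2 of 5 after scaling (15.2%). Ddit3 was at 7.97, 8.03 and 7.24 FPKM in Ctrl livers and at 18.9, 86.2 and 217 FPKM in LKO livers, a log2 fold change of 3.05 ± 0.75 (adjusted p = 0.0189). Leaving out single libraries moved it from 2.25 (without LKO liver 3) to 3.98 (without LKO liver 1), and it was called in those runs only, 2 of 6 (adjusted p up to 0.0702). Atf5 was at 178, 206 and 164 FPKM in Ctrl and 356, 437 and 457 FPKM in LKO (1.18 ± 0.14, adjusted p = 0.00194), and was called in 6 of 6 such runs. Of the 13 genes of these lists called on the deposited scale and given here with values, Grpel2, Hsp90aa1, Hspa1b and Atf5 were called in all 6 runs and Hspa1a in 5. Nln was called in 3, Clpb, Pitrm1, Pmpcb and Ddit3 in 2, and Ppif, Timm8a1 and Cct2 in 1. Cebpb, at 49.5 ± 35.7 FPKM in Ctrl and 82.3 ± 17.3 in LKO, did not pass (adjusted p = 0.199). In iWAT, GM and hypothalamus 0 genes of these 5 lists passed by limma, and 7, 1 and 4 of their 74 genes tested had an unadjusted p under 0.05, or 9.46%, 1.35% and 5.41%, against 15.0%, 6.83% and 3.72% of all genes.

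**Figure D5:**
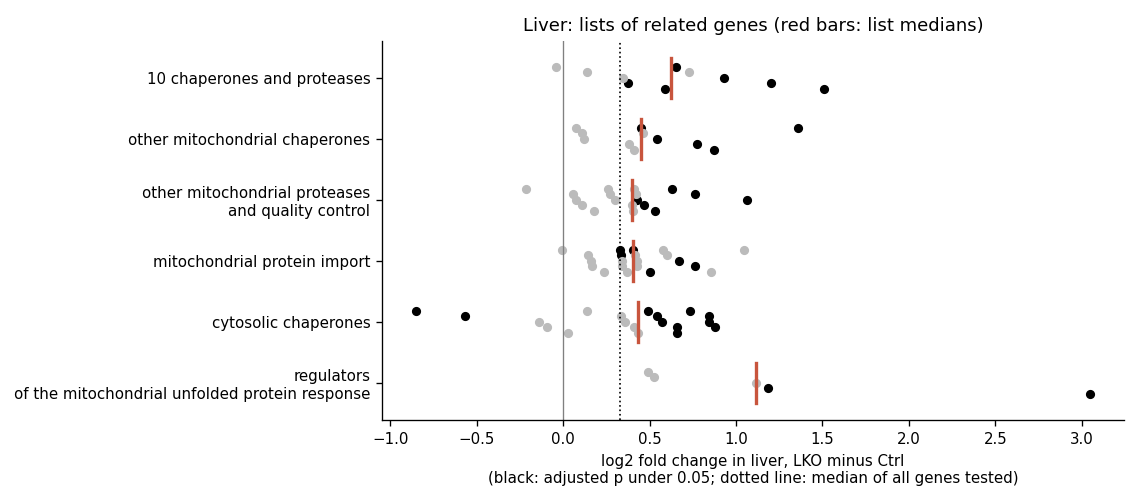
Log2 fold change (LKO minus Ctrl) in liver of the 10 genes and of 5 lists of related genes. Each point is a gene, black where the adjusted p is under 0.05, the red bars are list medians and the dotted line is the median of all genes tested, 0.33. Lonp1 is the rightmost of the 10 genes, and Ddit3 and Atf5 lie to the right among the regulators.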

How the data were processed

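RNA was sequenced in 24 libraries, 3 per genotype in each of 4 tissues. According to the labels, libraries were made with a TruSeq RNA kit that does not mark strand and read in paired ends, and the build was mm10. The submitters' processing notes name FastQC 0.11.5, Trimmomatic 0.32, HISAT2 2.0.5, Bowtie2 2.2.6, STAR 2.5.2b and StringTie 1.3.3b, with no role or order. FPKM was deposited by the authors per gene in 1 joined table. TPM and mean read coverage (signal) were deposited by the authors in a table per library, and library bases were taken as the quotient behind coverage and FPKM. Without strand, overlapping genes cannot be told apart.

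Groups were taken from the labels. LKO was compared with Ctrl within each tissue by limma 3.58.1 in R 4.3.3 (moderated variances with trend) on log2(FPKM + 1), over genes that reached 1 FPKM in 3 or more of the 6 libraries, with Benjamini-Hochberg adjustment over all genes tested. A gene was called at an adjusted p under 0.05. Tissue dependence was tested by an F test over 24 libraries, and Ctrl tissues by pairwise contrasts over 12 libraries. Ratios within libraries used exact two-sided permutation tests (scipy 1.17.1). Fitting code was checked on simulated data.

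The 10 genes and the lists were chosen with earlier results of these data known. All 10 are named in every tissue, with the targeted gene, the 3 list genes with the largest change in liver, list genes called in another tissue, and the 3 transcripts most alike. Dnajc30, Lactb, Timm10b, Hspa1a, Dnaja1 and Dnajb1 are named outside that rule, after their values were seen, because counts were small. Alternatives covered the pseudocount (0.1), the filter, TPM, median-ratio scaling, quantile normalization, ordinary variances, 1 fit of all libraries, a replicate block, a fold limit of 1.5 and leaving out each replicate. Median-ratio scaling with LKO replicate 1 left out, and the scaled and leave-one-out values of the other named genes, were added after the data were seen.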

Additional observations from a re-analysis of the deposited data

Results flagged for a closer look

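The LKO effect differed between the 4 tissues, by the F test of the difference itself, for 7 of the 10 genes, against 33.5% of the 15849 genes tested, and for 3 (Hspa9, Lonp1 and Clpx) after median-ratio scaling, against 23.7%. The number was 3 when Ctrl liver 2, Ctrl liver 3, LKO liver 2 or LKO liver 3 was left out, against 22.2% to 25.0% of all genes. The adjusted p was 0.00285 for Hspa9, 0.00455 for Hspd1, 0.00652 for Lonp1, 0.0237 for Yme1l1, 0.0270 for Afg3l2, 0.0319 for Dnaja3 and 0.0357 for Hspe1. On the deposited scale each had its larger change in liver, with log2 fold changes there of 1.20 (Hspa9), 0.93 (Hspd1), 1.51 (Lonp1), 0.37 (Yme1l1), 0.59 (Afg3l2), 0.73 (Dnaja3) and 0.65 (Hspe1), and log2 fold changes between -0.13 and 0.13 in the other 3 tissues. After median-ratio scaling Yme1l1 was at -0.05 in liver, smaller in size than its 0.06 in iWAT and 0.07 in hypothalamus. With 3 libraries in a group, no library was tested for standing apart.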

How the results depend on the processing

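In liver, 6 of the 10 genes were called as reported, and between 4 and 8 with a pseudocount of 0.1 (6, against 44.3% of all genes called), no filter (4, 28.8%), TPM (8, 58.8%), all libraries in 1 fit (8, 63.3%) or a fold limit (5, 27.4%). The count was 2 after median-ratio scaling (Hspa9 higher, Clpx lower, 33.1% of all genes), 3 after quantile normalization (Hspa9, Hspd1 and Lonp1, 31.1%) and 1 with ordinary variances (Yme1l1, 21.2%), and 0 to 8 when each replicate was left out, 8 without LKO replicate 1. In iWAT, GM and hypothalamus the count was 0 under all 15 alternatives. The number of genes with a tissue-dependent effect was 3 after median-ratio scaling and 3 to 8 when a library was left out, being 3 without any 1 of liver Ctrl 2, liver Ctrl 3, liver LKO 2 or liver LKO 3, and stayed within 5 to 8 otherwise, while the share of all genes ran from 22.2% to 45.2%. The cause was not tested. Replicate numbers were not taken as pairs, because the labels do not say what they mark. Deviations of same-numbered Ctrl and LKO libraries correlated at -0.13 to 0.35, and those of differently numbered ones at -0.42 to 0.30. In GM these ranges were 0.05 to 0.35 and -0.33 to 0.24. Such correlations cannot decide whether the numbers mark a pairing or a batch. With a replicate block, 5 genes were called in liver (Dnaja3 gained, Yme1l1 and Afg3l2 lost, 35.7% of all genes) and 6 were tissue-dependent (31.6%). The Ctrl tissue count was 39 to 52 of 60, against 76.9% to 82.5% of all gene comparisons, and ratios not overlapping were 9 to 13 of 36.

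Directions turned in liver for Clpp (-0.29 after median-ratio scaling, -0.28 with LKO replicate 1 also left out, -0.15 after quantile normalization), Yme1l1 (-0.048 and -0.10 under the same pair of scalings), Trap1 (-0.094 and -0.075) and Clpx (0.081 with TPM, and -0.11 to 0.038 leaving out replicates). Elsewhere, where no gene was called, values near 0 changed sign. With TPM they were 0.026 (Hspa9, iWAT), 0.012 (Dnaja3, iWAT) and 0.019 (Lonp1, hypothalamus). After median-ratio scaling they were 0.01048 (Hspa9, GM), 0.013 (Clpx, GM), 0.0015 (Yme1l1, GM) and 0.00061 (Lonp1, hypothalamus), and after quantile normalization 0.016 (Dnaja3, iWAT), 0.0035 (Hspa9, GM), 0.00035 (Yme1l1, GM) and 0.0084 (Lonp1, hypothalamus). Leaving out each replicate gave in iWAT -0.054 to 0.086 (Hspa9), -0.12 to 0.037 (Clpp), -0.12 to 0.0070 (Clpx) and -0.078 to 0.093 (Dnaja3). In GM it gave -0.024 to 0.023 (Hspd1), -0.13 to 0.049 (Hspe1), -0.0535 to 0.0296 (Hspa9), -0.068 to 0.09035 (Clpx), -0.057 to 0.022 (Yme1l1) and -0.081 to 0.023 (Trap1). In hypothalamus it gave -0.042 to 0.026 (Hspa9), -0.059 to 0.052 (Lonp1), -0.11 to 0.048 (Clpp) and -0.014 to 0.044 (Clpx). Of the named genes of the other lists called on the deposited scale, Ppif, Clpb, Pmpcb, Timm8a1, Cct2 and Hsp90aa1 missed the threshold after median-ratio scaling. With 3 libraries a group, small differences could be missed.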
